A study of Saccharomyces cerevisiae with 10 samples.

Results

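Yeast cells were compared shortly after a change of medium and during settled growth, to ask which genes moved the same way whether the cells were put into salt or taken out of it. The comparison set the 4 arrays taken 1 h after a medium change against the 6 arrays taken from settled cultures, which are all 10 arrays of the series, and it was made over 5449 Saccharomyces cerevisiae genes of the Affymetrix Yeast Genome 2.0 array. Arrays were chosen by their labels alone. The settled groups were Sample A (normal growth in YPD, a rich glucose medium), Sample C (after stress adaptation, in YPD with 1 M KCl) and Sample E (after stress recovery, in YPD, 2 to 3 generations after KCl was removed). The recent groups were Sample B (during stress adaptation, 1 h after the culture met 1 M KCl) and Sample D (during stress recovery, 1 h after KCl was replaced by YPD). Each group had 2 arrays, from cultures grown as different batches at 30 °C, and is written here with its letter and replicate number (B1, B2). All groups shared the same genetic background, named BQS1350 in the labels. The methods instead describe BY4742, a haploid MATα strain, with a myc-tagged Gcn5, and which of these gave the RNA is not settled. The 5 measured α-specific genes were high on every array (10.35 to 14.06 on the log2 scale) while the 7 a-specific genes were low (5.23 to 8.38).

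When yeast meets high external salt, water leaves the cell, and the Hog1 kinase and the transcription factors Msn2 and Msn4 switch on genes for glycerol, trehalose and protein repair while ribosome production is turned down. The return to normal medium is the opposite osmotic step: water enters and the wall is stretched, a state that the cell wall integrity kinase Slt2 is known to answer. Glycogen, a glucose store, and the cell cycle commitment point Start both respond to the state of growth. The question here is which genes moved alike although the salt step ran in opposite directions.

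Several properties separated recent from settled cultures besides the time since the change. Both recent groups were in fresh medium at a lower cell density than the cultures they came from, so time since the change, fresh medium and density cannot be told apart. Sample B was diluted with an equal volume of salt medium, whereas cells for Sample D were pelleted first. The recent class also held 1 of its 2 groups in KCl, and the settled class 1 of 3, so a contrast with equal KCl on both sides (the mean of B minus C and D minus E) was also tested, and its effect on the called genes is given with them. The Sample B arrays stood apart from the rest: they differed from each other by 1.04 on the log2 scale (root mean square over genes), against 0.32 to 0.48 within the other groups, and their 18S ribosomal RNA probe set was at 10.09 and 10.31, below the 11.21 to 12.66 of the settled arrays. Sample D lay inside the settled range for that probe set (11.37 and 11.83). The excess of the 3′ over the 5′ probe set of EAF5, a sign of RNA state, was 1.16 and 1.31 in B and 1.08 and 1.001 in D, against 0.76 to 1.05 on the settled arrays, so B1, B2 and D1 were above the settled range. The same excess for ACT1 went both ways, at 0.18 and 0.56 in B and 0.25 and 0.37 in D, against 0.28 to 0.32 on the settled arrays. The 25S ribosomal RNA probe set was not low in B. It was at 13.55 and 14.00 in B and 13.92 and 14.04 in D, against 13.43 to 13.99 on the settled arrays. The part of these RNA differences in the results was not tested. The median over genes ranged from 9.59 to 10.19 between arrays, and 5229 to 5365 genes per array lay above background, which is the level that 95% of the other-species probe sets of the same array stayed under.

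The 2 medium changes moved most genes in opposite ways or by small amounts. Entry into KCl (B minus A) called 240 of 5449 genes, 4.4%, with 191 higher (3.51%) and 49 lower (0.899%). Calls are limma tests with Benjamini-Hochberg adjustment over all genes at an adjusted p under 0.05, and with the culture batch as a block the count was 583 (10.7%), 442 higher (8.11%) and 141 lower (2.59%). The excess of higher over lower calls depended on scaling, since quantile normalization gave 261 higher and 235 lower. Entry into recovery (D minus C) called 0 genes with limma (0%), with 270 genes at an unadjusted p under 0.05. The block called 1 gene (0.0184%), array weights called 56 and a fit of Samples C and D alone called 38. For entry into KCl, array weights called 10 and a fit of Samples A and B alone called 11, fewer than in recovery. The order of the 2 counts therefore depended on how the spread was estimated. The standard deviation of the difference over genes was 0.82 for entry into KCl and 0.40 for entry into recovery. The wider spread between the B arrays enters the first of these values.

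No array is shared by these 2 comparisons. Across the 5449 genes their differences correlated negatively, with r = -0.26 (Spearman -0.21), and r was -0.27 without B1 and -0.17 without B2. Genes are not independent replicates, and this value is a description. By sign on the deposited values, higher in KCl and lower in recovery was the most common pattern, with 2154 genes (39.5%). The reverse was shown by 1010 genes (18.5%). A further 928 genes were higher in both changes and 1355 were lower in both. These counts use the sign alone, so a shift of a whole array moves genes between patterns. The median step over all genes was -0.18 for B1 minus A1 and 0.44 for B2 minus A2. It was -0.002 for D1 minus C1 and -0.18 for D2 minus C2. Whether the order of the patterns holds after rescaling was not tested. Of the 191 genes called higher on entry into KCl, 135 were lower on entry into recovery, with a median D minus C of -0.39.

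**Figure D1:**
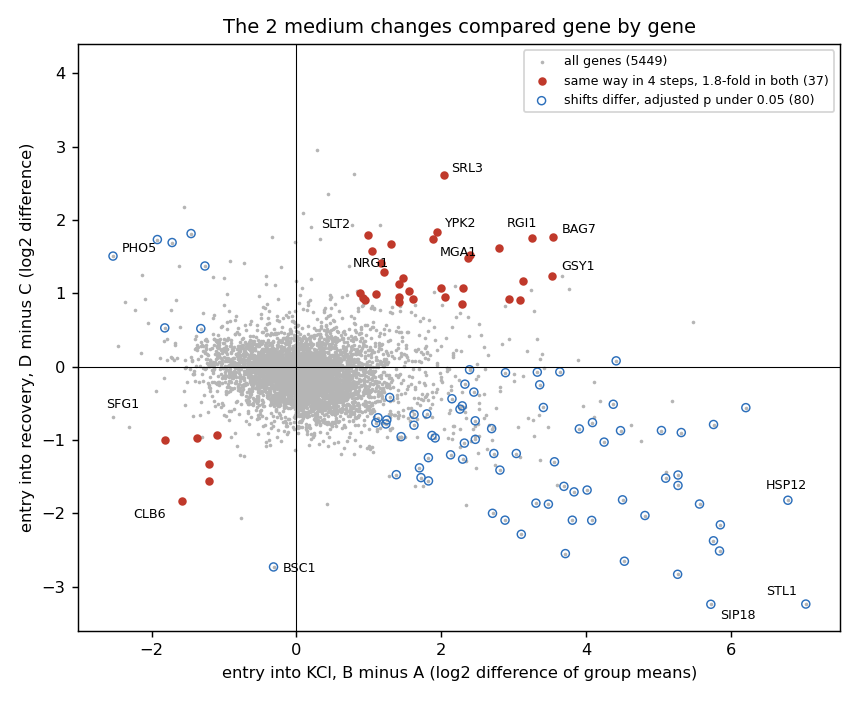
Each point is a gene, with its log2 difference on entry into KCl (B minus A) on the horizontal axis and on entry into recovery (D minus C) on the vertical axis. The 37 genes that moved at least 1.8-fold the same way sit in the upper right and lower left corners, and most of the 80 genes whose changes differed between the shifts sit at the lower right, where STL1 and HSP12 lie farthest out.

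A gene that passes in both changes with the same direction is the strictest form of the question, and none did. Limma called 0 genes (0%) when the larger of the 2 p-values was adjusted, in the blocked fit as well. Genes that moved in opposite directions could not pass and are not in these counts. At an unadjusted p under 0.05 in both changes, with the same direction, there were 35 genes, and 62 with the block. The lowest such p was 0.000328, for YPK2. All statements below on movement in both changes rest on the values of each array and on the pooled comparison of recent with settled arrays, which a large change in Sample B alone can also pass.

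In that pooled comparison 26 of 5449 genes were called (0.477%), 22 higher (0.404%) and 4 lower (0.0734%). Their adjusted p-values lay between 0.0412 and 0.0467, and 772 genes had an unadjusted p under 0.05. With the culture batch as a block 134 genes were called (2.46%), 111 higher (2.04%) and 23 lower (0.422%), and all 26 were among them. With equal KCl on both sides all 26 kept their direction, but BSC1 alone was called, and the other 25 had adjusted p-values between 0.247 and 0.359 (0.0959 and 0.149 with the block). The 31 genes called after quantile normalization included 15 of the 26. The array-by-array values divided the 26 genes evenly. In 13 of them every matched step (B1 minus A1, B2 minus A2, D1 minus C1 and D2 minus C2) had 1 sign and all 4 recent arrays lay outside the range of the 6 settled arrays. These were the rises YPK2, NRG1, GSY1, RGI1, IGD1, YAK1, USV1, EGO4 and RTS3, and the falls SFG1, BSC1, GFD2 and BMT6. Over all genes, 332 (6.09%) were higher and 316 (5.8%) lower in all 4 steps, and 47 (0.863%) and 93 (1.71%) had recent arrays wholly above or below the settled ones.

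YPK2, which encodes a protein kinase that acts below the TORC2 complex in cell integrity signalling, had the smallest difference between its mean changes among the 9 rises. Its log2 values were 9.17 and 9.26 in Sample B and 9.18 and 10.12 in Sample D, against 7.11 and 7.44 in A, 7.95 and 7.69 in C, and 8.15 and 8.24 in E. Every recent array was above every settled array, and the difference of 1.67 ± 0.21 (4 against 6 arrays) was a 3.18-fold rise with an adjusted p of 0.0412. Here and below, ± gives the SE of the limma fit with 1 coefficient per group. It measures the spread within groups and leaves out the spread between the groups of a class, and the adjusted p-values rest on the same spread. Entry into KCl gave 1.94 ± 0.32 and entry into recovery 1.83 ± 0.32, and the difference between these was 0.10 ± 0.45. Its matched steps were less even, from 1.23 to 2.43, with D2 well above the other recent arrays. With equal KCl on both sides the difference was 1.42 (adjusted p = 0.247).

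NRG1, a zinc finger repressor of glucose-repressed genes, behaved in much the same way. It stood at 9.77 and 9.30 in B and 9.65 and 9.68 in D, against 8.19 and 7.93 in A, 8.69 and 8.21 in C, and 8.59 and 8.66 in E. The recent arrays lay above all settled arrays, by 1.22 ± 0.17 with an adjusted p of 0.043, and the changes were 1.47 ± 0.27 in KCl and 1.21 ± 0.27 in recovery. Its matched steps ran from 0.95 to 1.58. Both YPK2 and NRG1 remained called with both Sample B arrays left out, at 1.89 and 1.28, whereas with equal KCl on both sides NRG1 was at 1.06 (adjusted p = 0.247), and after quantile normalization its adjusted p was 0.078.

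The largest of these 9 rises was that of GSY1, a glycogen synthase. It was at 10.70 and 10.01 in B and 10.004 and 10.78 in D, against 6.39 and 7.24 in A, 9.42 and 8.88 in C, and 6.97 and 8.02 in E. The groups did not overlap, but the settled cultures in KCl lay well above the settled cultures without it. The pooled rise was 2.55 ± 0.31, or 5.86-fold (adjusted p = 0.0412), with 3.54 ± 0.47 on entry into KCl and 1.24 ± 0.47 on entry into recovery. With equal KCl on both sides the difference was 2.05 (adjusted p = 0.247). IGD1, an inhibitor of glycogen debranching, followed the same order, at 9.83 and 10.94 in B and 9.24 and 9.90 in D, against 7.39 and 7.20 in A, 8.85 and 8.49 in C, and 7.46 and 8.39 in E. It rose by 2.02 ± 0.28 (adjusted p = 0.043), and its margin in recovery was small, since D1 exceeded C1 by less than the arrays of Sample D differed from each other.

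RGI1, a gene required for respiratory growth, was at 12.68 and 12.26 in B and 12.52 and 12.83 in D. Its settled values were 9.41 and 9.03 in A, 11.89 and 9.94 in C, and 9.34 and 10.65 in E, so the arrays of Sample C disagreed by more than the recent arrays spanned. The rise was 2.53 ± 0.40, with an adjusted p of 0.043. USV1, a zinc finger protein that acts in stress and growth on non-fermentable carbon, was at 9.13 and 9.74 in B and 8.10 and 8.60 in D, against 6.41 and 6.59 in A, 7.94 and 6.91 in C, and 6.69 and 7.48 in E. D1 cleared C1 narrowly, and the pooled rise was 1.89 ± 0.27 (adjusted p = 0.043).

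YAK1, a kinase that opposes growth signalling by protein kinase A, was at 10.88 and 11.10 in B and 10.40 and 10.84 in D. The settled arrays were at 9.36 and 9.47 in A, 9.94 and 9.81 in C, and 9.67 and 10.07 in E. In both batches Sample B was highest and Sample D next, and the rise was 1.09 ± 0.16, or 2.12-fold (adjusted p = 0.043). EGO4 and RTS3 completed the rises with non-overlapping arrays, at 2.07 ± 0.34 and 1.26 ± 0.19. EGO4 was at 10.04 and 11.45 in B and 10.57 and 10.17 in D, against at most 9.71 on a settled array.

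The 4 falls were less alike. SFG1, a regulator of pseudohyphal growth and of the separation of daughter cells, was at 8.56 and 7.16 in B and 9.27 and 8.60 in D, against 10.35 and 10.42 in A, 9.45 and 9.78 in C, and 10.41 and 10.15 in E. Every recent array was below every settled one, although D1 was only just below C1, and the fall was -1.70 ± 0.28 (adjusted p = 0.0467). BMT6, a methyltransferase of 25S ribosomal RNA, was tight within each group, at 8.32 and 8.42 in B and 8.45 and 8.51 in D against 8.89 to 9.67 on the settled arrays, and fell by 0.92 on the log2 scale (adjusted p = 0.043). GFD2 was at 8.84 and 8.52 in B and 9.32 and 8.79 in D, against 9.63 to 10.30 on the settled arrays, with a difference of -1.11 ± 0.18.

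BSC1 was called lower through Samples C and E. It was at 5.55 and 5.12 in B and 4.94 and 4.42 in D, against 5.68 and 5.61 in A, 7.72 and 7.09 in C, and 7.01 and 6.57 in E. Both D arrays were not above background (5.31 and 5.13), and A and B were close to it, so a fall on entry into KCl could hardly be measured and that change was -0.32 ± 0.32. With each value below background raised to it, BSC1 was at least 4.55-fold lower in D than in C. In the same way it was at least 2.53-fold lower in the recent class and at least 3.54-fold lower with equal KCl on both sides. The raised values were not tested. The limma fit of the deposited values gave an adjusted p of 0.0822 for D minus C (0.0056 with the block) and 0.0429 with equal KCl on both sides.

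**Figure D2:**
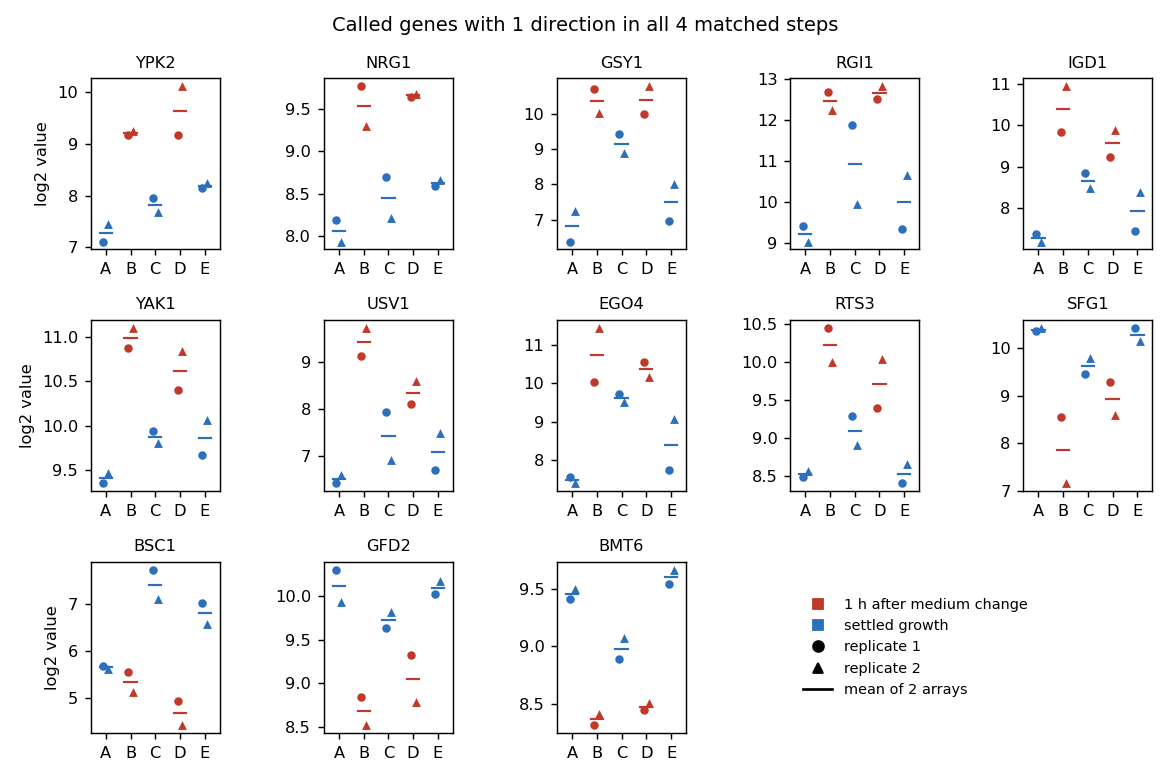
The log2 value of each array is plotted for the 13 called genes with 1 direction in all 4 matched steps, by group A to E, with red for the recent groups B and D, blue for the settled groups, circles and triangles for replicates 1 and 2, and a line for the mean of 2 arrays. In each panel the 4 recent arrays lie wholly above or wholly below the 6 settled arrays, and in BSC1 the Sample A values lie close to those of Sample B.

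The other 13 called genes, named here because they complete the set, did not have 1 sign in all 4 steps. They were GSM1, LEE1, YPC1, YJL107C, YOR062C, PRM10, BDH2, GLC3, PIR3, GPH1, MPC3, DDR2 and YNL194C. In 9 of the 22 called rises the mean of Sample D was below that of Sample C, and 25 of the 26 called genes, all but BSC1, were also called on entry into KCl. DDR2, a stress gene, was at 12.83 and 13.79 in B but at 10.46 and 11.53 in D, against 12.06 and 11.50 in C. Its rise of 2.68 ± 0.43 (adjusted p = 0.0439) was made of 5.76 ± 0.67 on entry into KCl and -0.79 ± 0.67 on entry into recovery. GPH1, the glycogen phosphorylase that breaks the store down, changed by 4.42 ± 0.49 and 0.08 ± 0.49.

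The count of called genes rested on few arrays. No gene was called without A1, A2, D1, D2 or E1, 1 (YNL194C) without C2, 5 without E2 and 23 without C1, whereas 942 were called without B1 and 416 without B2. With both B arrays left out, the 5 genes called were YPK2, NRG1, GSY1, EGO4 and BSC1, with adjusted p-values between 0.0125 and 0.0458. Limma called 0 genes when the 5 groups were reduced to 2 classes, although 628 had an unadjusted p under 0.05.

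A further set was chosen by sign and size, without a test. In 37 genes (0.679%) all 4 matched steps had 1 sign and both changes were at least 1.8-fold, 31 higher (0.569%) and 6 lower (0.11%). At 2-fold there were 23, 19 higher and 4 lower. Since the values chose these genes, their sizes are a description, and so are the next counts, which use the same values. Of the 37, 6 were among the 26 called genes, 22 were called with the block, and 18 had recent and settled arrays that did not overlap. Over all genes 0.477% were called and 2.46% with the block, and 0.863% and 1.71% had recent arrays wholly above or below the settled ones. The genes higher in both changes but not yet named were CIT2, YPS3, PUN1, MAL11, RCR1, PIC2, RCN2, PHR1, SLT2, FBP26, VHS1, PRM5, MAL31, YPL088W, NCE103, TDA1, AFR1, MTL1, MGA1, HSP42, CRG1, SRL3, AIM17, YNR014W and BAG7. The 6 lower genes were CLB6, FAR1, IZH4, HLR1, TIP1 and SPT21. MAL11 and MAL31 are maltose permeases of a repeated family whose probe sets can share signal, so they are uncertain as separate genes.

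**Figure D3:**
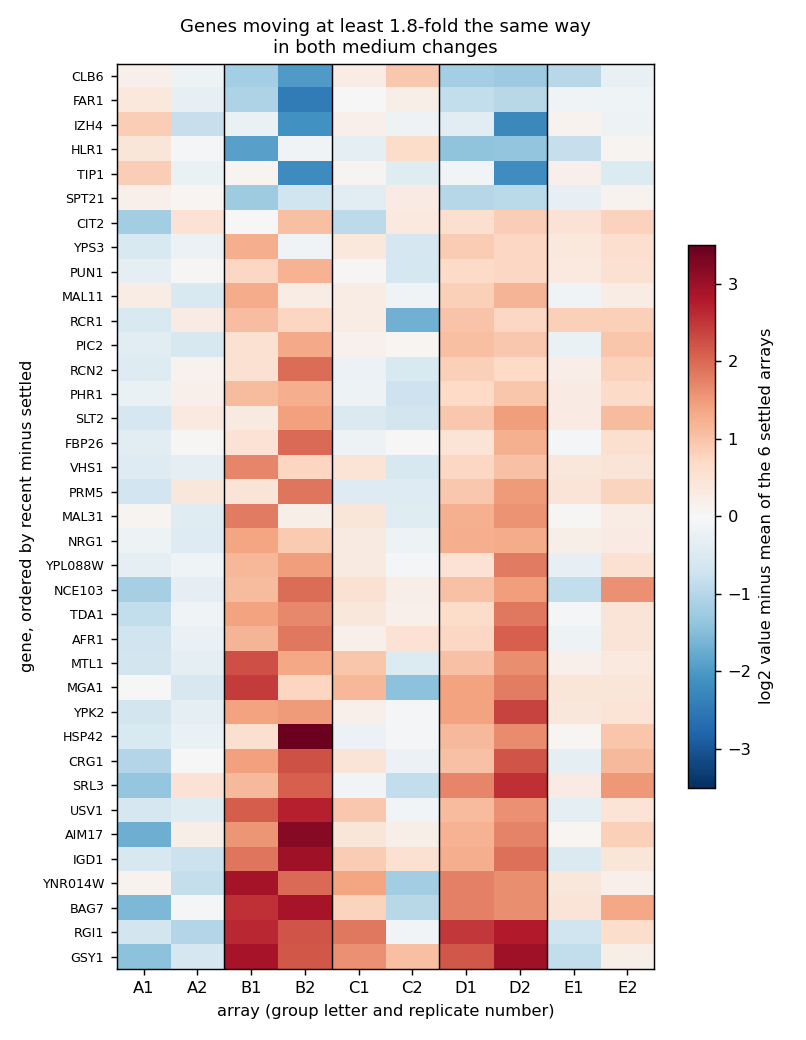
Rows are the 37 genes that moved at least 1.8-fold the same way in both medium changes, ordered by recent minus settled, and columns are the 10 arrays, with colour for the log2 value minus the mean of the 6 settled arrays. The B and D columns are blue for the 6 genes at the top, apart from B1 of TIP1, and mostly red for the 31 below. Some rows, such as IZH4 and TIP1, are carried by replicate 2.

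Of 47 measured genes of the G1/S transition and DNA replication, 17 (36.2%) were lower in all 4 matched steps and 0 were higher, beside 5.8% and 6.09% of all genes. This list and the lists below were chosen with earlier results of these data known, so their shares are a description. CLB6, an S phase cyclin, was at 7.81 and 7.003 in B and 7.80 and 7.72 in D, against 9.17 and 8.81 in A, 9.26 and 9.93 in C, and 8.03 and 8.74 in E. Recent arrays lay below all settled arrays, with E1 nearest to them. The difference of -1.41 ± 0.24 missed the threshold (adjusted p = 0.0527) and passed with the block (0.0268). Entry into KCl gave -1.58 ± 0.38 and entry into recovery -1.84 ± 0.38.

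FAR1, an inhibitor of the G1 cyclin kinase, was at 9.47 and 8.09 in B and 9.69 and 9.59 in D, against 10.27 to 10.90 on the settled arrays. SPT21, needed for histone gene transcription, was at 6.49 and 7.03 in B and 6.74 and 6.78 in D, against 7.35 to 8.03. MCD1, a cohesin subunit, was at 8.09 and 8.31 in B and 8.46 and 8.42 in D, against 8.73 to 9.60. None of these 3 overlapped between classes, and their adjusted p-values were 0.0846, 0.0852 and 0.103, or 0.0276, 0.0268 and 0.0293 with the block.

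The 17 lower members of the G1/S list became 14 after quantile normalization and 15 after median centring. Over all 5449 genes the 316 lower ones became 426 and 354. In 7 of the 47 the recent arrays lay wholly below the settled ones, beside 1.71% of all genes. No member was called in the pooled comparison and 4 were lower with the block, beside 0.422% of all genes. The median difference over the list was -0.36, beside -0.07 over all genes, and it stayed between -0.45 and -0.28 when single arrays were left out. The list's median was -0.25 on entry into KCl and -0.54 on entry into recovery, beside 0.08 and -0.09 over all genes.

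The 34 genes of G2/M and mitotic exit included 14 (41.2%) lower in all 4 steps and 0 higher, beside 5.8% and 6.09% of all genes. Under either rescaling 12 were lower, beside 426 and 354 of 5449 genes. The list's median was -0.35 in each change and -0.40 in the pooled comparison, and no member was called there or with the block. SWI5, a transcription factor of the M/G1 boundary, was at 8.03 and 7.29 in B and 8.09 and 8.85 in D, against 8.92 and 8.85 in A, 8.81 and 9.38 in C, and 8.54 and 9.37 in E. D2 lay inside the settled range, and the difference was -0.91 ± 0.26 (adjusted p = 0.168). The polo kinase gene CDC5 differed by -0.79 ± 0.23 (adjusted p = 0.167). SRL3, an inhibitor of Start, was higher in both changes, at 10.13 and 11.10 in B and 10.70 and 11.55 in D, against 7.66 and 9.49 in A, 8.90 and 8.13 in C, and 9.29 and 10.51 in E. Replicate 2 was above replicate 1 in every group but C, and the classes overlapped through E2, with a difference of 1.87 ± 0.43 and an adjusted p of 0.108 (0.0276 with the block). In bulk RNA, fewer cells in a cell cycle phase and less RNA per cell cannot be told apart.

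Genes of the cell wall integrity pathway and of calcineurin, a phosphatase that acts beside it, had some members that were higher after both changes. Of 31 members, 10 (32.3%) were higher in all 4 steps and 0 lower, beside 6.09% and 5.8% of all genes. The 10 were MTL1, PRM5, SLT2, RCN2, CMK2, YPS1, ROM1, CMK1, MID2 and CMP2. After quantile normalization and median centring 11 and 10 members were higher, beside 432 and 459 of 5449 genes. More members, 13 (41.9%), went up in KCl and down in recovery, beside 39.5% of all genes. No member was called in the pooled comparison and 3 were higher with the block, beside 2.04% of all genes. The list's median was 0.44 on entry into KCl and -0.00 on entry into recovery, where 48.4% of the members were higher, beside 35.6% of all genes.

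SLT2, the kinase at the end of the pathway, was at 11.26 and 12.36 in B and 11.89 and 12.41 in D. It was at 10.36 and 11.28 in A, 10.43 and 10.29 in C, and 11.22 and 12.06 in E. A2 and E2 overlapped the recent arrays. Entry into recovery gave 1.79 ± 0.46 and entry into KCl 0.99 ± 0.46, with a difference of -0.80 ± 0.66 between them (adjusted p = 0.61). The pooled difference of 1.04 ± 0.30 had an adjusted p of 0.168, and 0.0355 with the block.

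PRM5, a membrane protein gene induced through Slt2, was at 10.70 and 12.12 in B and 11.20 and 11.74 in D, against 9.57 and 10.64 in A, 9.80 and 9.79 in C, and 10.69 and 11.03 in E. MTL1, a sensor of wall stress, was at 9.28 and 8.38 in B and 8.05 and 8.66 in D, and its settled arrays reached at most 8.01. BAG7, a Rho1 GTPase activating protein outside the list, was at 9.22 and 9.56 in B and 8.42 and 8.28 in D, with at most 8.02 on a settled array. MTL1 and BAG7 did not overlap between classes and PRM5 did, through E2. Their differences were 1.56 ± 0.32, 2.21 ± 0.41 and 1.19 ± 0.32, with adjusted p-values of 0.0846, 0.0673 and 0.144, and A1 was not above background for BAG7. HSP42, a small heat shock protein gene, was at 10.31 and 13.17 in B, a gap of several log2 units within 1 group, and at 10.86 and 11.39 in D against 9.19 to 10.72 on the settled arrays.

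**Figure D4:**
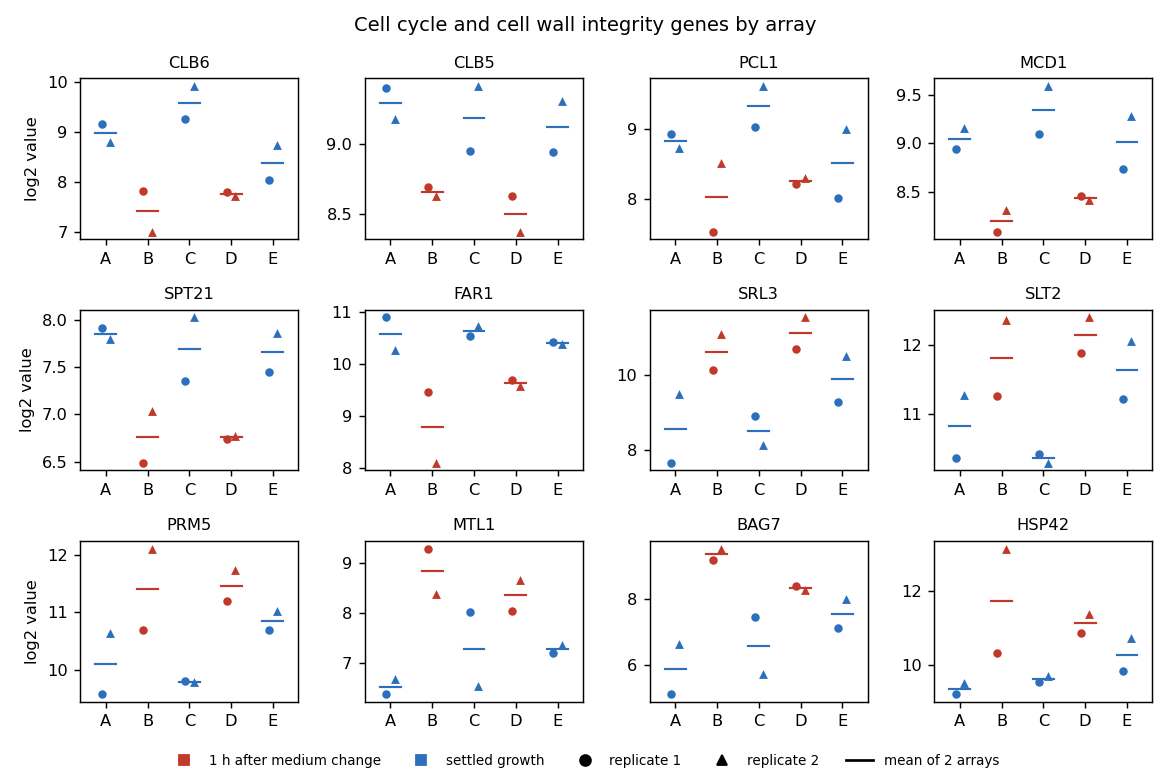
Log2 values by array and group for 6 cell cycle genes that were lower, for SRL3, and for 5 genes of cell wall integrity and protein folding, with red for the recent groups B and D, blue for the settled groups, circles and triangles for replicates 1 and 2, and a line for the mean of 2 arrays. CLB6, CLB5, MCD1, SPT21 and FAR1 have all recent arrays below all settled arrays, whereas in SLT2, PRM5 and SRL3 the second array of Sample E reaches into the recent range.

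Glycogen and trehalose genes had 8 of 25 members (32.0%) higher in all 4 steps and 0 lower, beside 6.09% and 5.8% of all genes. More members, 13 (52.0%), went up in KCl and down in recovery, beside 39.5% of all genes. In the pooled comparison 3 were called higher (GSY1, GPH1 and GLC3), beside 0.404% of all genes, and 7 with the block, beside 2.04%. The list's median was 1.40 on entry into KCl and -0.02 on entry into recovery. TSL1, a subunit of trehalose synthase, was in the 8 with 3.89 ± 0.93 and 0.10 ± 0.93, so its sign in recovery had little behind it. Genes of the protein kinase A and TOR pathway had 9 of 39 (23.1%) higher in all 4 steps and 1 (2.56%) lower, beside 6.09% and 5.8% of all genes. In 16 (41.0%) the value went up in KCl and down in recovery, beside 39.5% of all genes. The list's median was 0.39 in KCl and -0.03 in recovery. YAK1 was the called member, beside 0.404% of all genes called higher.

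The general stress list, genes of the Msn2 and Msn4 type, moved apart in the changes. Of 59 members 43 (72.9%) were higher in KCl and lower in recovery, beside 39.5% of all genes. In all 4 steps 12 (20.3%) were higher and 0 lower, beside 6.09% and 5.8% of all genes. The list's median was 3.04 on entry into KCl and -0.56 on entry into recovery, and in the pooled comparison 1.34. There 4 members were called, all higher, beside 0.404% of all genes. Of these, DDR2 and YNL194C were lower on average in D than in C, and YAK1 and USV1 were higher. Osmotic genes that depend on Hog1 had 1 of 27 members (3.70%) higher in all 4 steps, beside 6.09% of all genes. In 21 (77.8%) the value went up and then down, beside 39.5% of all genes, and the list's medians were 2.88 and -0.90.

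The direct test of the difference, (B minus A) minus (D minus C), called 80 genes (1.47%), 73 higher (1.34%) and 7 lower (0.128%), and 280 with the block (5.14%), 250 higher (4.59%) and 30 lower (0.551%). The split depended on scaling, with 116 higher and 43 lower after quantile normalization. STL1, a glycerol importer, was the largest, at 11.21 and 13.94 in B and 7.31 and 8.34 in D, against 6.06 and 5.02 in A and 10.71 and 11.41 in C. It was highest in KCl, both early and late. The fitted difference between the changes was 10.27 ± 1.16 (adjusted p = 0.0149), but A2 was not above background, so 1 of the 2 A arrays measured the gene. With A2 raised to background the difference was 10.08, a lower bound. HSP12, a membrane-protecting stress protein gene, changed by 6.79 ± 0.65 and -1.82 ± 0.65. In the other direction PHO5, the secreted acid phosphatase, went from 13.02 and 12.07 in A to 10.32 and 9.71 in B, and from 9.50 and 9.34 in C to 10.85 and 11.02 in D, a difference of -4.04 ± 0.54 (adjusted p = 0.0149). This count was 0 without A1, A2 or D1, 1 without C1, 43 without C2, 50 without D2, 228 without B2 and 1400 without B1.

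Ribosome assembly genes were low in the recent class through Sample B. The small subunit list (62 genes) had a median of -0.98 on entry into KCl and 0.04 on entry into recovery, and the large subunit list (69 genes) the same medians. Members lower in all 4 steps numbered 12 in each list (19.4% and 17.4%), beside 5.8% of all genes. After quantile normalization and median centring they numbered 6 and 6 for the small subunit and 5 and 2 for the large subunit, beside 426 and 354 of 5449 genes. Cytosolic ribosomal proteins had 15 of 128 (11.7%) lower in all 4 steps, beside 5.8% of all genes. After quantile normalization there were 13 and after median centring 1, beside 426 and 354 of 5449 genes. The transcript of GCN5 differed by -0.31 between the classes (adjusted p = 0.682).

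**Figure D5:**
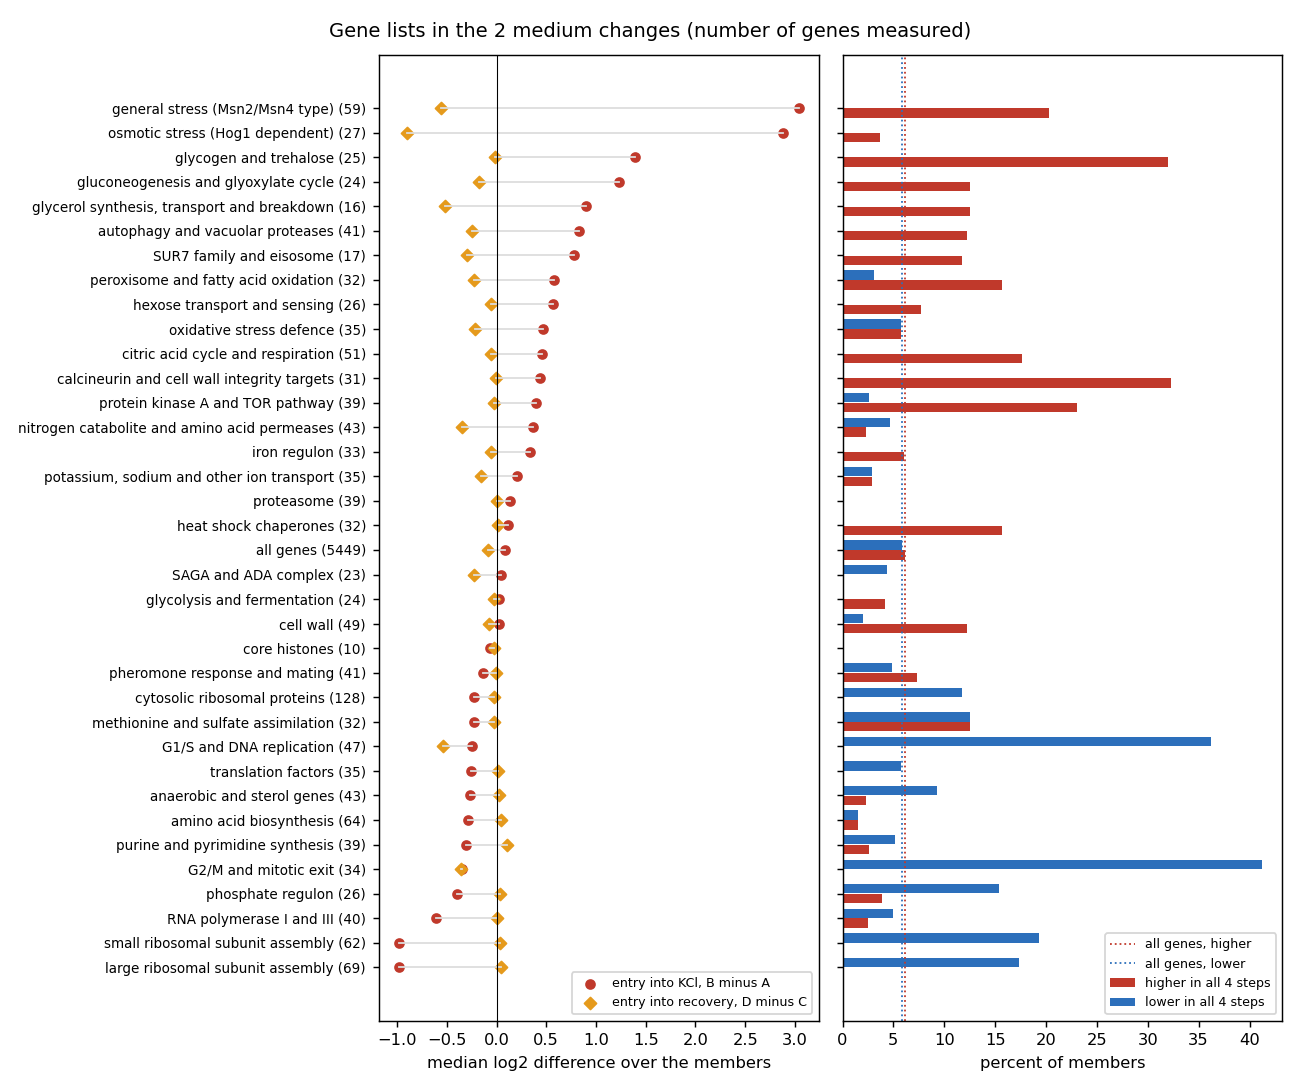
On the left, the median log2 difference of each gene list on entry into KCl (red circles) and entry into recovery (orange diamonds), with the number of genes measured after each name, and on the right the percent of members higher (red bars) or lower (blue bars) in all 4 matched steps, with dotted lines for all genes. G2/M and G1/S lists have both medians below 0 and the longest blue bars (41.2% and 36.2%), and the 2 stress lists at the top have medians on opposite sides of 0.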

How the data were processed

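The authors deposited log2 values from RMA in Affymetrix Expression Console, with versions and the set of arrays normalized together not given in the sources used here. Of 10928 probe sets, 213 were controls, 7244 had 1 gene symbol, 1 had several and 3683 none. Of those named, 5498 matched S. cerevisiae, and 47 genes with several probe sets kept the one with the highest mean. Groups were compared with limma 3.58.1 in R 4.3.3 (lmFit, contrasts.fit, eBayes), with 1 coefficient per group over 10 arrays and two-sided p-values adjusted over 5449 genes. Arrays hold no counts, so their number limits the precision.

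Replicates are culture batches by the labels, each sampled at all 5 points. Deviations of same-numbered arrays correlated by 0.22 to 0.52 between groups, so the number was taken to pair arrays. Alternatives were the block, quantile normalization, median centring, a filter on low values, all probe sets, array weights, other contrasts and leaving out each array. Genes were named by size among genes with 1 sign in all 4 steps, by the smaller of both changes, by the difference between changes and by the 4 largest differences of each list. CLB5 and other genes outside that rule, listed to complete a set, were chosen after their values were seen. The members and the 37 lists were chosen with earlier results of these data known. In simulated data of 5449 genes, the comparison recovered 63 of 100 changes of 1 and 87 of 100 of 2 on the log2 scale, with 6 false calls. The simulation had the same spread in every group, no culture batch and an equal change in B and D. The real arrays differ in these points, so the rates check the code and do not describe these data. Promoter sequences were not analysed here.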

Additional observations from a re-analysis of the deposited data

Results flagged for a closer look

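In 3 of 90 sets of arrays tested over 45 genes, 1 array lay far from the rest of its class. The limit used is passed by about 1 in 20 sets when all values come from 1 normal distribution. Here the classes mix groups and the genes were chosen by these values, so that rate does not apply. Among the 4 recent arrays, B2 was lowest for CLB6 (7.003, next 7.72) and for FAR1 (8.09, next 9.46), and D2 was highest for YPK2 (10.12, next 9.26).

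The log2 changes of 2 groups of genes differed between entry into KCl and entry into recovery by the test of (B minus A) minus (D minus C), with limma. The largest positive differences were those of STL1 (10.27), SIP18 (8.96), HSP12 (8.61), NQM1 (8.36), HXT5 (8.13), GRE1 (8.10), ALD3 (8.01) and RTC3 (7.44). On average each was higher in B than in A and lower in D than in C. The 7 negative differences were PHO5 (-4.04), PHM6 (-3.65), FRE7 (-3.41), YOL014W (-3.27), YHR214C-E (-2.64), FPR4 (-2.35) and HOM3 (-1.84). Each was lower in B than in A and higher in D than in C. Some arrays were not above background for SIP18 (A1, A2, D1 and E1), STL1 (A2), FRE7 (B2 and C1) and YHR214C-E (C1). With those values raised to background the differences were 8.38, 10.08, -2.98 and -2.55, which are bounds on their size. PHO5 and PHM6 belong to the phosphate response, FRE7 is a metal reductase gene, and HOM3 is aspartate kinase of threonine and methionine synthesis.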

How the results depend on the processing

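The count of genes called between recent and settled arrays (26) was 31 after quantile normalization, of which 15 were among the 26, and 28 after filtering low values. It was 134 with the replicate block, 108 after median centring, 90 without Sample C, 1 with equal KCl on both sides and 0 with all probe sets, array weights, 2 classes or the mean of the changes from A and C. Leaving out 1 array gave 0 to 942. Alternatives chosen after seeing the data gave 1 with equal KCl and the block, 71 for the mean of both changes with the block, 5 without both B arrays and 115 without both D arrays. Entry into KCl (240) gave 583 with the block, 496 and 453 after quantile normalization and centring, 10 with array weights, 11 with Samples A and B alone, and 0 to 1848 without 1 array, where 0 was without A1. Entry into recovery (0) gave 1 with the block, 56 with array weights, 38 with Samples C and D alone, and 0 to 42 without 1 array. The difference between changes (80) gave 280 with the block, 159 and 144 after rescaling, and 0 to 1400 without 1 array. The 37 genes of at least 1.8-fold were 23 at 2-fold and 48 after either rescaling. No gene passed in both changes with the same direction under any setting run. With all 10 arrays kept, 35 to 78 genes had the same direction and an unadjusted p under 0.05 in both. Genes that passed in opposite directions were not counted. Over the 176 named genes no called value reversed. The cause of these differences was not tested. A lone array left in a group was assumed to vary like the other groups.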
